A study of Mus musculus with 12 samples.

Results

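Cultured leukaemia cells and primary tumours were set side by side: 3 libraries of vehicle-treated mouse cells of T cell acute lymphoblastic leukaemia, or T-ALL, kept ex vivo, and 3 libraries of Cxcr4+/+ primary T-ALL tumours. These are 6 of the 12 libraries of the series, chosen by their labels and not by any measured value. The other 6, AMD3100-treated cells and Cxcr4-/- tumours, serve only as a second culture and tumour pair. Over the 6 libraries, 10446 autosomal genes of the 23174 listed had a mean of at least 1 FPKM (reads per transcript length and sequencing depth) and were compared.

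All 6 samples are of the C57BL/6 strain and carry Notch1-deltaE, a Notch1 without most of the extracellular domain, which signals with no need for a ligand. The vehicle libraries are replicates 1, 2 and 3. They are labelled Notch1-deltaE+ with no statement on Cxcr4. The tumour libraries are 1, 2 and 4, labelled Cxcr4+/+ Notch1-deltaE+, with no treatment given. The culture described in the labels starts from spleen and uses a feeder layer of OP9, a mouse bone marrow stromal line stopped from dividing with mitomycin C. Its medium holds 10% serum and 5 ng/ml of interleukin 7 (IL-7). The labels attach this protocol to every sample and do not say whether the primary tumours were ever cultured, how the Notch1 allele was delivered, how old the mice were or how many animals or cultures the libraries came from. Replicate spread may therefore be technical in culture.

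Leukaemia cells in an organ and in a dish meet different signals. T cells in tissue respond to interferons, chemokines and antigen receptors and circulate through the sphingosine 1-phosphate receptor. In medium, growth factors, glucose and amino acids are abundant and lipid supply depends on serum. Cells sense sterols through SCAP and the SREBP transcription factors: when sterols in the endoplasmic reticulum are low, SREBP is released and switches on the genes of cholesterol synthesis and uptake.

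The groups come from tables that the authors made separately, so no test was run across them and no p-value is given. An exact permutation test of 3 against 3 could in any case not go below 0.1. Values were put on a common scale by quantile scaling of log2(FPKM + 1) over the 6 libraries. A gene was called higher in one group where its 3 scaled values did not overlap the 3 of the other and the mean difference was at least 1 on the log2 scale, or 2-fold. Because of the added 1, differences of genes at low FPKM come out smaller than they are. "Scaled difference" below is the mean in culture minus the mean in the tumours, with its SE (n = 3 and 3). FPKM values are given as deposited, in the order vehicle 1, 2, 3 and tumour 1, 2, 4.

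Some libraries stood apart before any comparison. The share of haemoglobin transcripts in the summed FPKM was 1.29%, 5.47% and 22.95% for tumours 1, 2 and 4 but at most 9.59e-05% for the cultured cells. Spearman correlations across genes were 0.963 between vehicle 1 and 2, and 0.923 and 0.914 between each of these and vehicle 3. Tumours 2 and 4 correlated at 0.916, but tumour 1 only at 0.772 with tumour 2 and 0.734 with tumour 4. Culture and tumour libraries correlated at 0.720 to 0.742, so tumour 1 was about as far from tumour 4 as from the cultured cells. Vehicle 3 differed from its fellows in single genes: Ccr9, the receptor for the gut and thymus chemokine CCL25, was at 0.81, 1.08 and 242 FPKM in vehicle 1, 2 and 3. Gapdh, which no cell lacks, had values close to 0 throughout. A 0 may thus mean that no value could be estimated, and the wording below is "listed at 0".

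The T cell identity in the labels was visible in both groups. Cd3e, a signalling chain of the T cell receptor complex, was at 914, 854 and 462 FPKM in culture and 1293, 382 and 369 in the tumours. Lck, the kinase that starts receptor signalling, was at 610, 640 and 686 against 619, 147 and 253. For both genes tumour 1 lay near or above the cultured cells, and tumours 2 and 4 lay below them. In bulk samples fewer cells of a type and less RNA per cell cannot be told apart.

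Markers of other cells differed in kind between the groups. The erythroid list summed to 48.9, 50.9 and 63.2 FPKM in culture and to 3819, 21609 and 111412 in the tumours. The list of natural killer (NK) cell genes summed to 1.15, 0.0888 and 0.129 in culture and to 204, 74.1 and 51.1 in the tumours, so it was lowest where the erythroid list was highest. Neutrophil granule genes reached 3452 in tumour 2 but only 9.11 in tumour 4, and macrophage genes 422 in tumour 2. The summed OP9 and other stromal genes were higher in culture, 804, 1054 and 1159 in culture against 552, 256 and 239. Vim and Lgals1, abundant members of the stromal list, are also made by T cells. Lgals1 alone was at 918 in vehicle 3, the library with the highest sum. Cxcl12, at 10.4, 12.7 and 3.84 in culture, was lowest in that library. The defining stromal genes Cxcl12, Col6a1, Col6a2, Sparc and Col1a2 were listed at 0 in all 3 tumours. Of 17 kept stromal genes 7 were higher in culture and 1 in the tumours, against 11.0% and 10.8% of all genes. Csf1, the macrophage growth factor, was the gene higher in the tumours, at 0.50, 0.80 and 0.18 against 34.9, 11.4 and 5.46. Mmp14 and Col5a1 were not called, with scaled differences of -1.62 and -1.13. These sums stand beside the results below, and their part in those results was not tested.

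**Figure D1:**
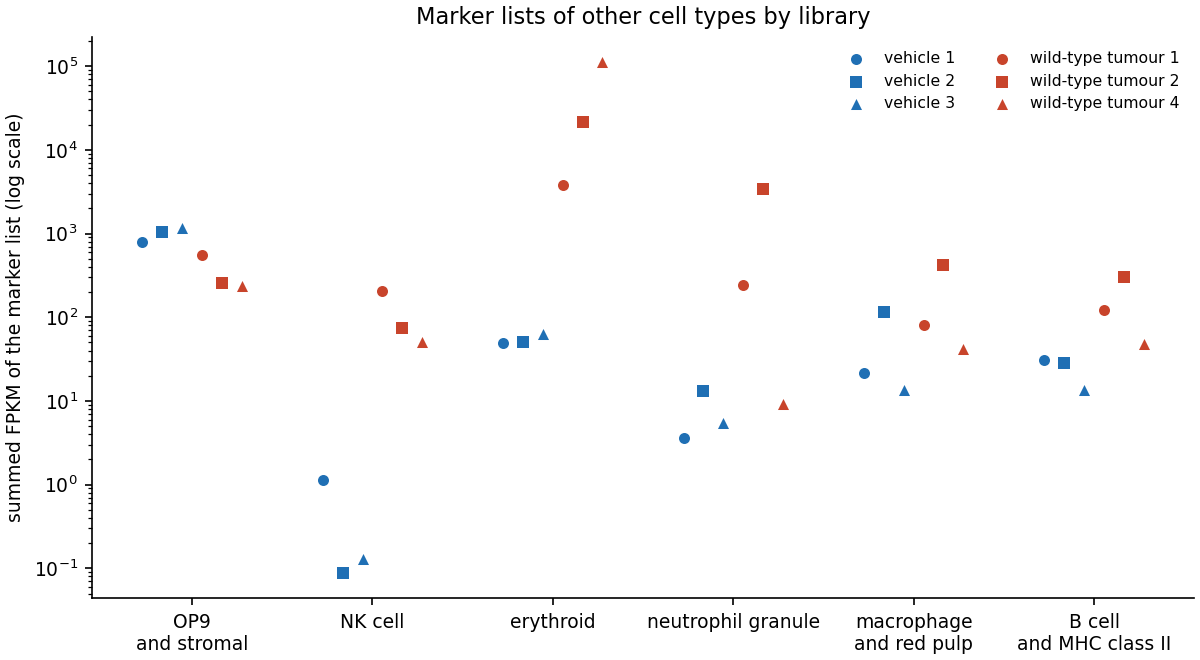
Summed FPKM (log scale) of 6 marker lists in each vehicle library (blue) and each wild-type tumour (red), 1 point per library. Erythroid sums increase from 3819 to 111412 over tumours 1, 2 and 4, and NK sums decrease from 204 to 51.1. Stromal sums are highest in culture, where Lgals1 alone is at 918 in vehicle 3.

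Of the 10446 genes, 1153 (11.0%) were higher in culture and 1126 (10.8%) were higher in the tumours. The median scaled difference of all genes was 0.15. The split depended on the scaling: with median-of-ratios scaling 771 genes were higher in culture and 1378 in the tumours, so that 35.9% of calls in place of 50.6% were on the culture side. Correcting each library for transcript length, an alternative chosen after seeing the data, gave 828 and 1272 (39.4%). Genes higher in culture had a median transcript length of 2564 bases, genes higher in the tumours 3662, and all genes 3319. Large differences lay mostly on the tumour side, with 242 genes at least 8-fold higher there against 55 in culture.

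**Figure D2:**
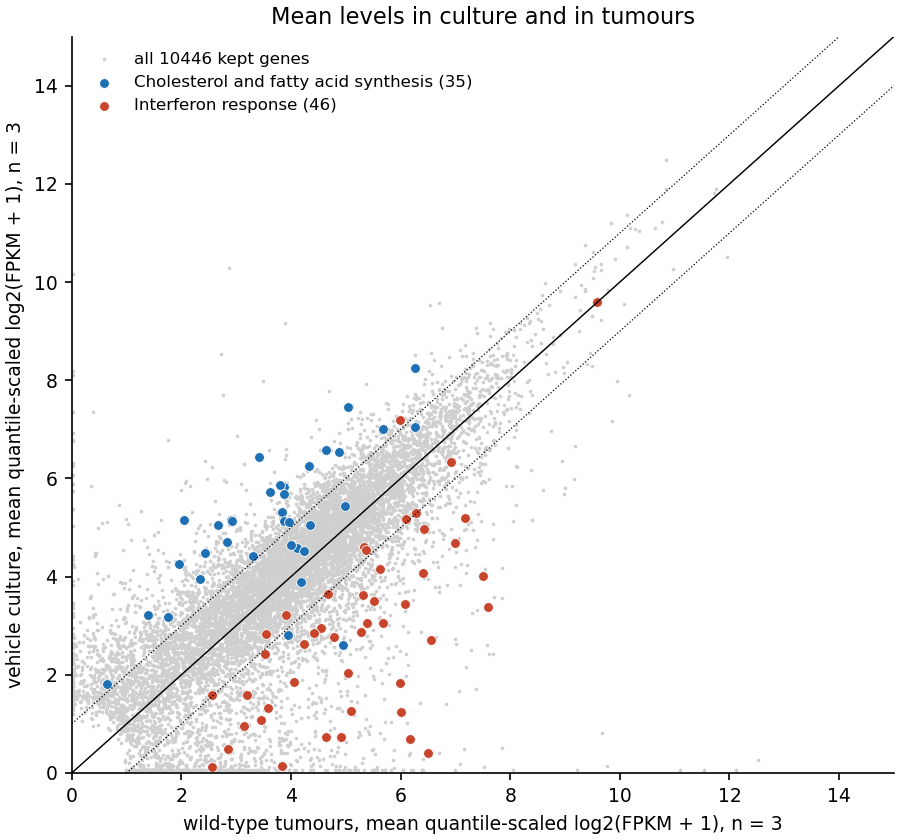
Mean quantile-scaled log2(FPKM + 1) of each of the 10446 genes in vehicle culture (vertical) and wild-type tumours (horizontal), with equality as a solid line and 2-fold differences as dotted lines. Most of the 35 cholesterol and fatty acid genes (blue) lie above the line and most of the 46 interferon genes (red) below it.

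Sterol and lipid synthesis had the largest share of genes higher in culture among the 25 lists compared. Of 35 genes of cholesterol and fatty acid synthesis, 26 were higher in culture and 2 in the tumours, that is 74.3% against 11.0% of all genes on the culture side. The list's median scaled difference was 1.67. It held against each tumour alone, with medians of 1.42, 1.74 and 1.45 against tumours 1, 2 and 4. Of the other 6 genes on the list, 4 were under 1 FPKM and 2 are not autosomal.

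Promoters of members with large differences are shown to let a motif that is common in this list be seen. The lines give the 250 bases before the annotated start of Cyp51, Lss and Insig1 (RefSeq, GRCm38.p6), 5′ to 3′ on the strand of the gene. Capitals mark CCAAT on either strand (read as ATTGG on the other), the box bound by NF-Y, a general factor that is known to act with SREBP at sterol genes. Coordinates are chr5:4104698-4104947 (minus strand), chr10:76531355-76531604 (plus strand) and chr5:28071162-28071411 (plus strand).
Cyp51: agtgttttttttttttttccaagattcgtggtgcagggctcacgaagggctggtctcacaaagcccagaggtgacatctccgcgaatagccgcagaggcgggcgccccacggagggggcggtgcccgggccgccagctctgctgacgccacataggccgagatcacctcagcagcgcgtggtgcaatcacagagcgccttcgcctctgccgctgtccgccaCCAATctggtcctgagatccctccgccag
Lss: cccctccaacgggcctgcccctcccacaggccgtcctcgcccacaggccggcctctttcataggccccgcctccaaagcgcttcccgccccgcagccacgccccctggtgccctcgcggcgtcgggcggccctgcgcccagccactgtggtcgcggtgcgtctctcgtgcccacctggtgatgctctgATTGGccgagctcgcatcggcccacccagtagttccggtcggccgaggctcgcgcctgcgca
Insig1: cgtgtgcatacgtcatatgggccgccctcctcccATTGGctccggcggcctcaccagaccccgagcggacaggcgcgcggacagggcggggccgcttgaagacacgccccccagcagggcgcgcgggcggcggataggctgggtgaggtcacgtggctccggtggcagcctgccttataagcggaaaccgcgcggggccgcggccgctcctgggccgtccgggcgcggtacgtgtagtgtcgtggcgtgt

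The motif begins 29 bases before the start in Cyp51, 62 in Lss and 216 in Insig1. Over the 24 kept members of the list with an entry in the promoter table, 17 (70.8%) held CCAAT in this window, against 37.3% of the 8361 kept genes with an entry. Among the 17 members called higher in culture the share was nearly the same, 12 (70.6%). The promoter of Fads2, which differed as much, held none. The E-box CACGTG was in 3 of the 24 (12.5%) and in 8.72% of all. A match is a description of the letters and not evidence of binding.

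Enzymes of sterol synthesis separated the groups. Cyp51, which removes a methyl group from lanosterol, was at 138, 101 and 58.1 FPKM in culture and 7.02, 8.28 and 13.8 in the tumours (scaled difference 3.04 ± 0.47). Lss, which closes the ring system to form lanosterol, was at 46.7, 36.0 and 23.5 against 6.58, 4.18 and 5.49. Sqle, which oxidises squalene ahead of that step, was at 71.6, 61.5 and 47.8 against 8.44, 14.9 and 17.4. In Cyp51, Lss and Sqle alike vehicle 3 was the lowest of the cultured libraries and still above every tumour. Mvk, Mvd, Idi1, Fdps, Fdft1, Sc4mol, Hsd17b7 and Dhcr7 were also called, with scaled differences from 1.11 for Fdft1 to 2.20 for Mvd. Pmvk, a mevalonate pathway kinase, was at 29.7, 18.5 and 23.2 against 16.2, 20.5 and 13.9, and its groups overlapped.

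The regulators were less uniform. Insig1, a sterol-induced anchor of SCAP and itself an SREBP target, was at 40.7, 42.0 and 28.8 FPKM against 7.01, 6.21 and 5.79. Srebf2, which encodes the SREBP that drives cholesterol genes, was at 143, 147 and 137 against 50.6, 33.5 and 61.1 (scaled difference 1.34 ± 0.22). Srebf1, the SREBP gene tied more to fatty acids, was at 42.5, 40.3 and 52.1 against 31.5, 30.9 and 23.5. Its groups did not overlap, but its scaled difference of 0.45 was under the minimum for a call.

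Fatty acid synthesis and desaturation went the same way. Fasn, the fatty acid synthase, was at 105, 93.8 and 105 FPKM in culture against 31.5, 25.5 and 22.3. Fads2, the desaturase of polyunsaturated fat, was at 201, 194 and 192 against 11.1, 57.7 and 42.8. Scd2, which makes monounsaturated fat, was at 324, 336 and 365 against 107, 53.1 and 60.3. Culture was tight in all of these and tumour values varied more. Acly, which supplies cytosolic acetyl-CoA, had no overlap but a scaled difference of only 0.79.

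The members higher in the tumours were Mylip and Lpin1. Mylip encodes a ubiquitin ligase induced by sterol-sensing LXR receptors. It was at 4.21, 5.96 and 5.43 FPKM in culture and 37.4, 20.6 and 28.9 in the tumours, a scaled difference of -2.35 ± 0.27. Lpin1, a phosphatidate phosphatase, was at 7.17, 6.10 and 5.30 against 12.6, 18.9 and 10.2. Abcg1, a cholesterol exporter and another LXR target, overlapped, with tumour 1 at 31.9 above all cultured libraries and tumours 2 and 4 at 12.2 and 8.52 below them. In AMD3100 culture against knockout tumours 17 of the 35 genes were higher in culture, against 13.6% of all genes in that pair. The list's median there was 1.06, and Scd1 was no longer different (-0.20 against 2.30).

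**Figure D3:**
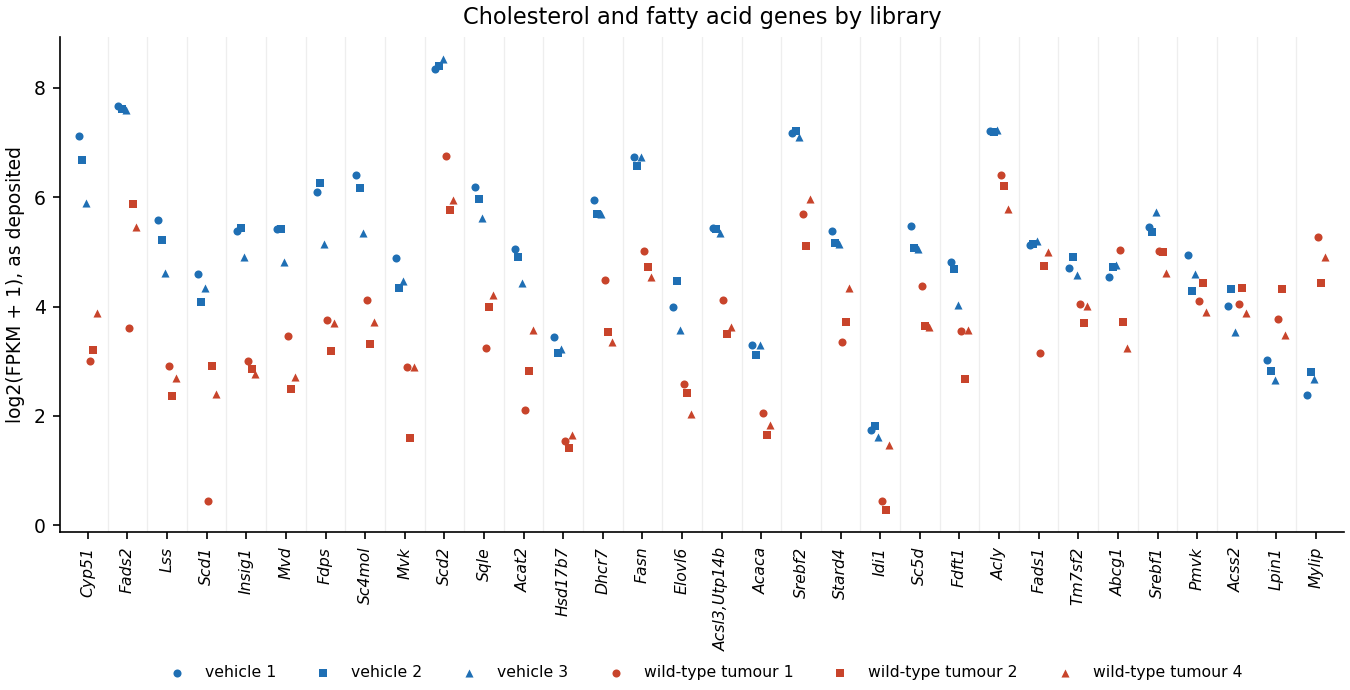
Deposited log2(FPKM + 1) of 32 kept cholesterol and fatty acid genes in each vehicle library (blue) and each wild-type tumour (red), ordered by scaled difference. From Cyp51 to Fdft1 the blue points lie above the red ones, and Lpin1 and Mylip at the right show the opposite order.

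Interferon response genes had the largest share on the tumour side among these lists. Of 46 genes 34 were higher in the tumours (73.9% against 10.8% of all genes) and 1 in culture, with a median scaled difference of -2.19. Against tumours 1, 2 and 4 alone the medians were -1.78, -2.04 and -2.44. Type I interferons act through a complex that contains IRF9 and binds GAAA repeats in the promoters of these genes.

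Promoters of strongly different members carry that repeat. The lines give the 250 bases before the start of Rsad2, Ifit1 and Isg15 (RefSeq, GRCm38.p6; chr12:26456453-26456702, minus strand; chr19:34640639-34640888, plus strand; chr4:156200819-156201068, minus strand). They were chosen after seeing the values, as the members with the largest differences whose window holds the motif. Capitals mark GAAA, any 2 bases and GAAA again, on either strand (read as TTTC repeats on the other), the core to which IRF9 and other IRF factors are known to bind.
Rsad2: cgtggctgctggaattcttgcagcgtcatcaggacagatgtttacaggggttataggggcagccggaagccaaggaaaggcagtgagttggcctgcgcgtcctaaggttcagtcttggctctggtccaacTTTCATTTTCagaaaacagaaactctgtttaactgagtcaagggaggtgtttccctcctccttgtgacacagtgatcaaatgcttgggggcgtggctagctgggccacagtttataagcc
Ifit1: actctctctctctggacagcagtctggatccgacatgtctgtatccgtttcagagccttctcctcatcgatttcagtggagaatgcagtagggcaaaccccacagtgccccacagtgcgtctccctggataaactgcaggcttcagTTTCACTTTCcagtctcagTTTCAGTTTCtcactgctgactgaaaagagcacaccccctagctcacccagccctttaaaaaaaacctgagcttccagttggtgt
Isg15: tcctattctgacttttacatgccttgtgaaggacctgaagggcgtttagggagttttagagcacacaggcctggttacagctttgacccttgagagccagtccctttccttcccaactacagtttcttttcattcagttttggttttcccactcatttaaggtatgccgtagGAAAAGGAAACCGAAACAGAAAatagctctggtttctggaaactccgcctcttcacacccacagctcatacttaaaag

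The motif begins 120 bases before the start of Rsad2, 104 and 85 before that of Ifit1, and 78, 72 and 66 before that of Isg15, where the copies overlap. It was in 13 of the 33 kept members with an entry (39.4%), in 11 of the 25 called higher in the tumours (44.0%) and in 2.70% of the 8361 kept genes.

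Several antiviral effectors had large differences. Rsad2, the radical enzyme viperin, was at 0.16, 0.17 and 0.051 FPKM in culture and 20.6, 58.0 and 563 in the tumours. Samhd1, which hydrolyses nucleotides needed for viral DNA synthesis, was at 0.45, 0.83 and 0.0499 against 36.2, 87.0 and 90.6 (scaled difference -5.48 ± 0.44). Ifit1, which binds foreign RNA caps, was at 0.46, 0.13 and 0.60 against 9.78, 16.4 and 137. Isg15, a ubiquitin-like modifier, was at 17.4, 17.2 and 14.0 against 61.7, 116 and 731. Cultured cells were uniformly low in these, and in Rsad2, Ifit1 and Isg15 tumour 4 was several times above the other tumours. Ifi27l2a, an interferon-induced gene, had the opposite order, at 2.69, 2.37 and 0 against 109, 58.2 and 29.1 (scaled difference -4.77 ± 0.83).

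Transducers of the response were higher as well. Irf9 was at 8.98, 8.03 and 5.63 FPKM against 30.6, 41.9 and 82.9. Irf7, the factor that amplifies interferon production, was at 2.10, 2.22 and 3.11 against 23.8, 63.3 and 135. Stat2 had no overlap but was under the minimum for a call, at 7.94, 7.47 and 11.0 against 13.9, 13.4 and 12.5. The interferon-inducible GTPases Irgm1, Irgm2, Igtp, Iigp1, Gbp2 and Gbp3 were all called, with scaled differences from -1.61 for Gbp3 to -3.92 for Iigp1.

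The member higher in culture was Bst2, which tethers budding virus and also marks plasmacytoid dendritic cells, at 133, 118 and 266 FPKM against 45.3, 64.3 and 67.1. Ly6e, a surface protein of immature thymocytes, was abundant in both groups, at 886, 829 and 946 against 1072, 527 and 511. Of the 34 interferon genes higher in the tumours, 18 increased in scaled value from tumour 1 over 2 to 4 and 2 decreased along that order (52.9% and 5.88%), against 31.3% and 32.9% of all genes higher in the tumours. Erythroid sums increase along the same order, and their part in this result was not tested.

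**Figure D4:**
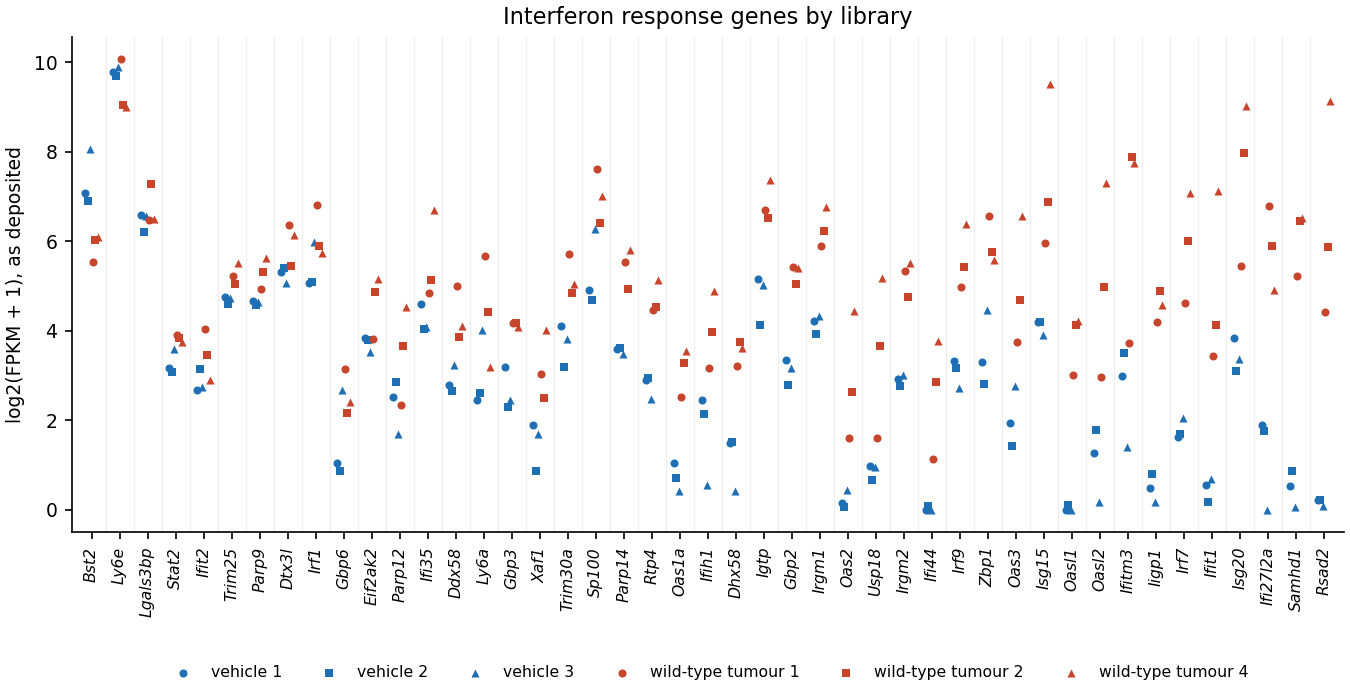
Deposited log2(FPKM + 1) of 45 kept interferon response genes in each vehicle library (blue) and each wild-type tumour (red), ordered by scaled difference. From Ifi35 rightwards most tumour points lie above the cultured ones, and tumour 4 is the highest in Rsad2, Isg15 and Ifit1.

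Class I antigen presentation was split by gene. The heavy chains H2-K1 (85.2, 32.2 and 111 FPKM against 588, 580 and 368) and H2-Q7 (3.14, 0 and 2.77 against 113, 128 and 69.8) were higher in the tumours. Reads of class I genes can be shared between near-identical copies, so single H2 values are uncertain. B2m, the light chain, was at 1950, 1535 and 1906 against 4081, 3186 and 3265. Nlrc5, the transactivator of class I genes, was at 0.72, 0.39 and 2.54 against 24.8, 16.3 and 17.0 (scaled difference -3.25 ± 0.48). In all of these the groups were clearly apart. In total 10 of 23 genes of the list were higher in the tumours and none in culture, against 10.8% and 11.0% of all genes. The immunoproteasome genes Psmb8, Psmb9 and Psmb10 and the peptide transporter gene Tap2 were not called: Psmb8, for one, was at 331, 197 and 432 against 249, 117 and 122.

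Cytotoxic effector and activation genes were higher in the tumours together with NK markers. Of 17 genes 10 were called on the tumour side and none in culture, against 10.8% and 11.0% of all genes. The median was -2.66. Gzmk, a granzyme, was listed at 0 in every cultured library and was at 52.3, 38.0 and 23.4 FPKM in the tumours. Lag3, an inhibitory receptor of activated T cells, was at 0.77, 1.19 and 0.41 against 114, 65.0 and 32.0. Prf1, which encodes perforin, was at 0.83, 2.24 and 0.30 against 57.5, 30.6 and 17.3. Each was highest in tumour 1 and lowest in tumour 4, and all 10 called genes followed that order, as did 6 of the 7 NK markers. Of all genes higher in the tumours, 31.7% decreased in deposited FPKM over tumours 1, 2 and 4. Klrd1, an NK receptor chain, was listed at 0 in culture and at 65.3, 21.7 and 17.7 in the tumours. The part of NK cells in the effector genes was not tested.

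Gzma, another granzyme, did not follow the others. It was among the abundant transcripts of the cultured cells, at 2242, 1240 and 2854 FPKM, and was at 1165, 411 and 344 in the tumours. The scaled values overlapped, so it was not called. Ccl5, a chemokine of effector T and NK cells, was at 0.43, 2.35 and 0 in culture and 1455, 819 and 195 in the tumours (scaled difference -8.86 ± 1.21). Ccl3, a related chemokine, was listed at 0 in culture and was at 154, 81.1 and 30.8 in the tumours.

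Egress and adhesion genes differed in both directions. Of 26 homing genes 9 (34.6%, against 10.8% of all genes) were higher in the tumours, 3 (11.5%, against 11.0%) were higher in culture and 14 were not called. S1pr1, the receptor by which T cells leave tissue along sphingosine 1-phosphate, was at 2.27, 4.94 and 1.11 FPKM in culture and 81.1, 32.5 and 24.99 in the tumours (scaled difference -3.60 ± 0.63). Klf2, the factor that switches on S1pr1, was at 14.0, 17.4 and 0.11 against 116, 71.9 and 48.6. Itga4, the alpha 4 integrin chain, was at 9.44, 0.41 and 19.3 against 130, 111 and 102, and Cd44, a receptor for hyaluronan, at 0.50, 0.62 and 8.92 against 30.0, 63.5 and 25.7. All 4 genes separated the groups, with wide spread among the cultured libraries for Klf2 and Itga4. On the culture side were Ccr4, a chemokine receptor, at 74.6, 40.0 and 61.2 against 20.6, 3.83 and 13.9, Itgae, and Itga6, the laminin-binding alpha 6 chain.

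Cxcr4, the gene the series is about, differed little. It was at 183, 112 and 141 FPKM in culture and 241, 155 and 206 in the tumours. The deposited values overlapped and the scaled ones did not, with a scaled difference of -0.77 ± 0.27 that was under the minimum for a call. Its ligand gene Cxcl12 was at 10.4, 12.7 and 3.84 in culture and listed at 0 in every wild-type tumour. Other stromal genes varied within culture: Fabp4, a fat cell marker of OP9, was at 105, 359 and 0.84, and Pdgfrb at 136, 160 and 4.2.

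FoxO-responsive genes, which PI3K and Akt signalling keep low, were called in the tumours or not at all. Of 25 genes 10 (40.0%, against 10.8% of all genes) were higher there and none in culture, with a median of -1.07. Without tumour 1, 9 were higher in the tumours and 2 in culture, against 13.5% and 14.9% of all genes. Txnip, an inhibitor of thioredoxin and glucose uptake, was at 32.8, 21.2 and 47.8 FPKM against 230, 124 and 70.8. Cdkn1b, the cell cycle inhibitor p27, was at 39.1, 43.1 and 31.7 against 144, 56.0 and 76.5. Irs2, an adaptor of insulin signalling, was at 4.09, 6.52 and 0.39 against 14.5, 25.5 and 28.3. Il7r, a FoxO1 target and the receptor for the IL-7 in the medium, was at 34.3, 24.4 and 83.1 against 30.5, 10.7 and 17.9 and was not called. Pik3ip1 and Sesn3 were not called either.

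Some genes of acute signalling were higher in the tumours, and most were not called. Of 26 immediate early genes 8 (30.8%, against 10.8% of all genes) were higher there and none in culture, and of 19 NF-kB genes 6 (31.6%) and none. Without tumour 4 the immediate early count was 15, against 12.5% of all genes. Without tumour 1 the NF-kB count was 3, against 13.5% of all genes, with a median of -0.30 in place of -0.70. Nr4a2, an orphan receptor induced by antigen receptor signals, was at 0.44, 0.87 and 0 FPKM against 32.8, 14.9 and 4.39. Egr2, which such signals also induce, was at 0.60, 0.44 and 0.27 against 15.2, 9.50 and 2.73. Ltb, which encodes lymphotoxin beta, was at 27.3, 21.2 and 21.1 against 194, 104 and 73.5. In all 3 genes tumour 1 was the highest and tumour 4 the lowest, yet above culture. Fos overlapped, at 0.29, 1.06 and 0.39 against 2.77, 1.18 and 0.43, and Jun was at 34.1, 22.7 and 0.12 against 6.03, 3.31 and 2.48.

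**Figure D5:**
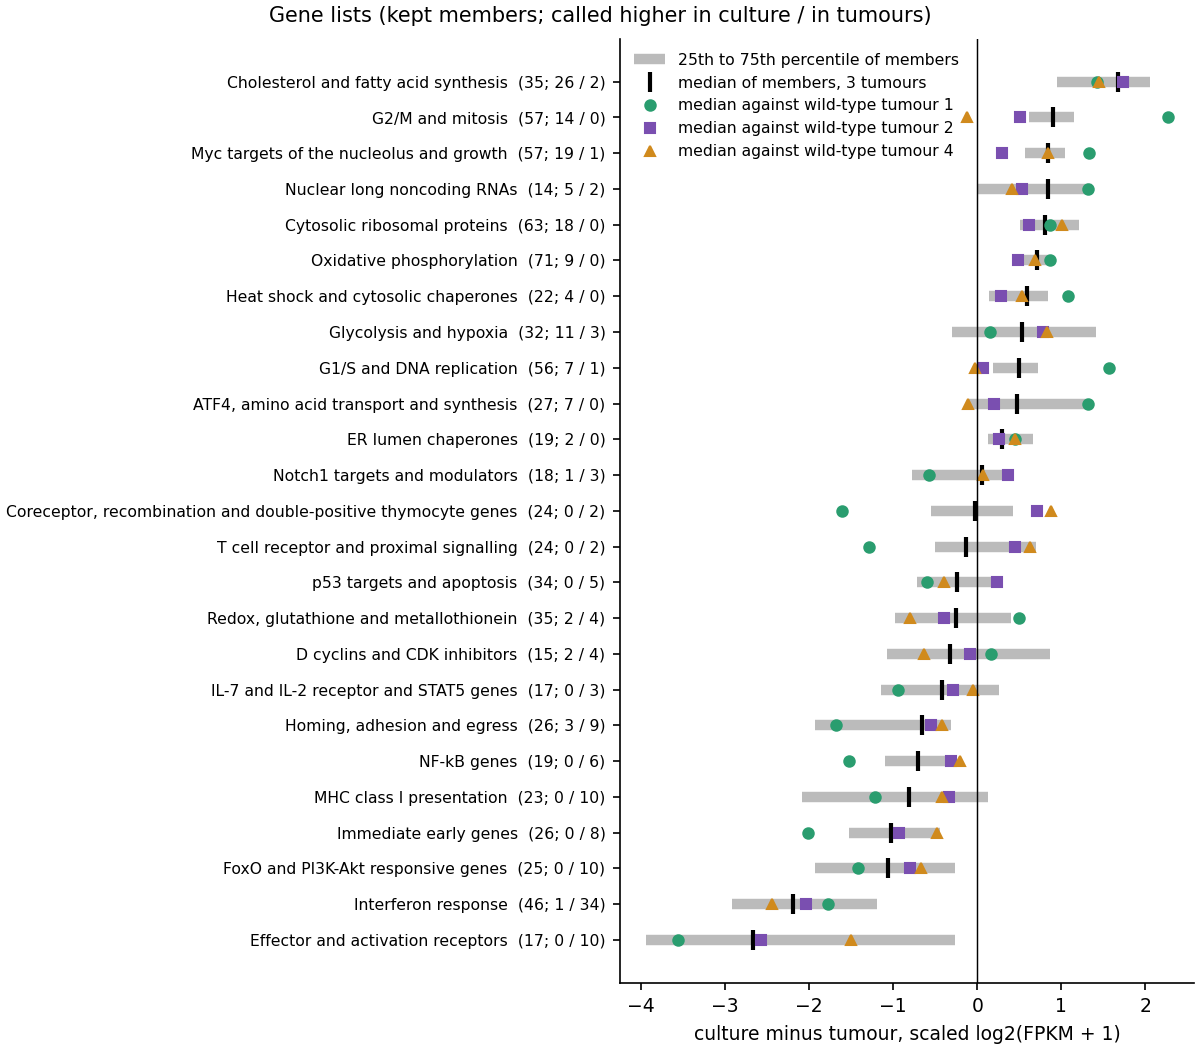
Scaled difference (vehicle culture minus wild-type tumours, log2 scale) for 25 gene lists: the median of the kept members (black tick), their 25th to 75th percentile (grey bar) and the median against each tumour alone (coloured symbols). Medians against single tumours lie at 1.42 to 1.74 for cholesterol genes and at -2.44 to -1.78 for interferon genes, whereas the cell cycle and T cell lists differ by tumour.

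Part of the growth genes were higher in culture. The list of nucleolar and growth genes around Myc also holds Myc, its partners and antagonists and a few cell cycle and metabolic targets. Of its 57 genes 19 (33.3%, against 11.0% of all genes) were higher in culture and 1 in the tumours, with a median of 0.84. Myc itself, which drives ribosome production and growth, was at 203, 214 and 213 FPKM in culture and 50.6, 110 and 72.7 in the tumours (scaled difference 1.19 ± 0.35). Rrp9, Srm and Nme1 were among the called targets. Fbl was called too, but its values were low and uncertain, at 3.64, 5.78 and 3.47 against 0, 0.86 and 2.54. Mxi1, a competitor of Myc for its partner Max, was the called gene on the tumour side, at 4.23, 5.46 and 2.15 against 12.8, 15.7 and 22.5. Without tumour 1 the number of these genes called in culture was 10, and without tumour 2 it was 31. Over all genes the shares called there were 14.9% and 13.2%.

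Ribosomal protein and respiratory chain transcripts are short. Of 63 cytosolic ribosomal protein genes 18 (28.6%) were called in culture, with a median of 0.81. Of 71 genes of oxidative phosphorylation 9 were called, a share of 12.7% that is near the 11.0% of all genes, with a median of 0.72. Without tumour 2 the latter count was 19, against 13.2% of all genes. No gene of either list was called in the tumours. Their median transcript lengths were 1120 and 1231 bases, against 3319 for all genes. After correction for length the medians were 0.40 and 0.36, with 11 and 3 genes called, against 7.95% of all genes. With no scaling 38 and 29 were called, against 13.6%. Ribosomal proteins have near-identical copies across the genome. The called genes Rps27, Rpl36, Rpl12, Rpl17, Rpl35, Rps7 and Rps25 were listed at under 10 FPKM in all 6 libraries, so their values are uncertain.

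Glycolysis was higher in culture in part. Of 32 genes 11 were called there and 3 in the tumours, against 11.0% and 10.8% of all genes. Without tumour 1 the number in the tumours was 6, against 13.5% of all genes. Ldha, which makes lactate, was at 639, 576 and 722 FPKM against 187, 173 and 162 (scaled difference 1.55 ± 0.17). Hk2, the inducible hexokinase, was at 10.2, 12.3 and 7.76 against 1.26, 1.13 and 2.82, whereas the constitutive Hk1 overlapped at 61.0, 59.6 and 29.4 against 43.7, 141 and 191. Egln3, an oxygen sensor induced by HIF, was at 61.1, 66.3 and 59.0 against 16.8, 2.48 and 8.67. The glucose transporter gene Slc2a3 ran the other way, at 7.45, 3.76 and 4.21 against 23.9, 18.8 and 34.9, and Slc2a1 overlapped.

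Among the genes of the ATF4 list, Phgdh and Psat1 of serine synthesis had the largest differences on the culture side. Phgdh, Psat1 and Psph, the 3 enzymes that make serine from a glycolytic intermediate, were all higher in culture. Psat1 was at 221, 202 and 185 FPKM against 34.3, 27.7 and 33.8, with a scaled difference of 2.38 ± 0.13. Phgdh was at 40.4, 37.9 and 43.0 against 5.98, 2.40 and 11.2. Shmt2, which passes serine carbon to folate in mitochondria, was at 211, 192 and 210 against 34.4, 62.7 and 108. In all, 7 of 27 genes of the ATF4 list were called in culture and none in the tumours. Over all genes the shares were 11.0% and 10.8%. Atf4 itself overlapped, at 154, 163 and 179 against 56.7, 123 and 189, and so did Asns, at 22.2, 24.9 and 10.0 against 0.73, 88.5 and 56.6.

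Cell cycle lists depended on tumour 1. Of 57 genes of G2/M and mitosis 14 were called in culture and none in the tumours, against 11.0% and 10.8% of all genes. The list's median was 0.90. The medians against tumours 1, 2 and 4 alone were 2.26, 0.51 and -0.13. Without tumour 1 the number called was 3 and the median 0.24, and without tumour 4 the number called was 41. Of all genes 14.9% were called in culture without tumour 1, and 12.9% without tumour 4. Cdc20, an activator of the anaphase complex, was at 120, 97.8 and 108 FPKM against 11.2, 43.8 and 56.2, with tumour 1 the lowest. Mki67 overlapped, at 162, 210 and 258 against 65.9, 329 and 821. Of 56 genes of DNA replication 7 were called in culture and 1 in the tumours, against 11.0% and 10.8% of all genes. Without tumour 1 the list's counts were 0 and 7, against 14.9% and 13.5% of all genes. Without tumour 2 the number called in culture was 14, against 13.2% of all genes.

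Ccnd3 and Ccnd1 differed in opposite directions. Ccnd3, the D cyclin of developing T cells, was at 66.9, 85.7 and 79.4 FPKM in culture and 345, 238 and 300 in the tumours (scaled difference -2.21 ± 0.22). Ccnd1 was low in both and higher in culture, at 2.17, 9.22 and 1.89 against 0.65, 0.95 and 0.38. Their partner kinase gene Cdk4 was at 571, 586 and 588 against 119, 266 and 183. Rb1, which these kinases inactivate, was at 16.9, 15.7 and 19.9 against 40.0, 55.1 and 86.5. In none of these 4 genes did the groups overlap.

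Chaperone and redox genes showed fewer calls. Of 22 heat shock genes 4 were higher in culture, against 11.0% of all genes. Among them was Hsp90ab1, an abundant cytosolic chaperone, at 2926, 2732 and 2561 FPKM against 828, 1057 and 1053. Without tumour 1 the list had 1 gene called in culture and 2 in the tumours, against 14.9% and 13.5% of all genes. Without tumour 2 it had 7 called in culture, against 13.2%. Corrected for transcript length it had 1, against 7.95%. Of 35 redox genes 2 were higher in culture and 4 in the tumours, against 11.0% and 10.8% of all genes. Without tumour 1 there were 13 in the tumours, against 13.5% of all genes. Without tumour 4 there were 4 in culture, against 12.9% of all genes. Prdx1, a peroxide-reducing enzyme, was at 301, 318 and 237 against 116, 66.3 and 98.0. Gpx1, a glutathione peroxidase abundant in red cells, was at 162, 145 and 175 against 217, 1051 and 2775, and Mt2, a metal-binding metallothionein, at 1.58, 11.3 and 0 against 19.0, 536 and 322. Gpx1 increased over tumours 1, 2 and 4 along with haemoglobin.

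Survival genes differed one by one. Of 34 genes of the p53 and apoptosis list 5 were higher in the tumours and none in culture. The shares over all genes were 10.8% and 11.0%. Bcl2l11, which encodes the death-promoting protein Bim, was at 10.6, 13.1 and 17.6 FPKM against 33.3, 42.8 and 39.9 (scaled difference -1.60 ± 0.21). Bcl2l1, its antagonist Bcl-xL and a survival factor of red cell precursors, was at 20.7, 20.2 and 18.3 against 66.1, 25.9 and 196. Gadd45a, a stress sensor, was at 10.9, 9.32 and 10.6 against 17.9, 39.8 and 247. For Bcl2l1 and Gadd45a tumour 4 was far above the other tumours, and for Bcl2l11 the tumours were close together.

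Notch and IL-7 receptor genes showed no common direction. Of 18 Notch1 targets and modulators 1 was higher in culture (Myc) and 3 in the tumours, against 11.0% and 10.8% of all genes. The median was 0.06. Without tumour 1 there were 4 in culture, without vehicle 3 there were 3, and without tumour 2 there were 5 in the tumours. Notch1 was at 157, 172 and 163 FPKM against 248, 73.4 and 176, and Dtx1, a direct target, at 193, 254 and 135 against 488, 157 and 206. Hes1, another direct target, was at 55.8, 70.5 and 53.1 against 30.6, 30.0 and 33.3, with no overlap but a scaled difference of 0.71. Lfng, which adds sugar to Notch, was at 9.84, 10.2 and 5.04 against 38.3, 41.4 and 16.3. Of 17 genes of the IL-7, IL-2 and STAT5 list 3 were higher in the tumours, against 10.8% of all genes. Il2rb, a chain of the IL-2 and IL-15 receptors, led them at 44.9, 31.1 and 35.3 against 255, 119 and 65.6. Cish, a STAT5 target, overlapped, at 9.81, 18.6 and 0.56 against 8.01, 21.9 and 104.

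Coreceptor genes were low in vehicle 1 and 2 and higher in vehicle 3. Cd4 was at 0.43, 1.33 and 26.0 FPKM in culture and 392, 111 and 47.2 in the tumours (scaled difference -5.04 ± 1.59). Cd8a was at 4.85, 12.1 and 233 against 452, 88.1 and 73.0, and vehicle 3 lay within the tumour range. Cd5 and Cd6, surface receptors that dampen T cell receptor signalling, were the called members of the 24 receptor genes, both higher in the tumours. Of all genes 10.8% were called there. The receptor list's median was -0.13, and against tumours 1, 2 and 4 alone it was -1.29, 0.45 and 0.63, so its direction changed with the tumour. Without tumour 1, 8 of these genes were called in culture, and without tumour 2, 4 were called in the tumours.

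Long noncoding RNAs differed in both directions, with 5 of 14 higher in culture and 2 in the tumours. The shares over all genes were 11.0% and 10.8%. Among hosts of small nucleolar RNAs, Snhg1 was at 223, 188 and 206 FPKM against 37.7, 64.9 and 52.5, and Snhg6 and Snhg12 were also higher in culture. Snhg3, Snhg5, Snhg8 and Gas5 were not called, and Snhg3 was at 62.7, 46.1 and 41.1 against 15.8, 98.5 and 79.8. Malat1 and Neat1, which stay in the nucleus, were higher in the tumours, Malat1 at 178, 214 and 334 against 1378, 470 and 1119. Rmrp, the RNA of an RNA-processing enzyme, was at 854, 898 and 778 against 64.3, 82.8 and 112 (scaled difference 2.99 ± 0.20). Rmrp has no poly-A tail, and the libraries were selected for poly-A, so its level here is uncertain.

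The largest single differences outside the marker lists had a different character in each direction. In culture they were led by H19, an imprinted noncoding RNA, at 426, 534 and 24.3 FPKM and listed at 0 in all tumours. Akr1c13 and Akr1c12, aldo-keto reductases encoded side by side, were at 221, 296 and 91.1 and at 78.1, 72.1 and 39.4, and at most 1.60 in any tumour. Slc22a3, an organic cation transporter, was at 39.4, 34.8 and 31.4 against 0.73, 1.32 and 0.25 (scaled difference 4.53 ± 0.25). Cdh1, which encodes E-cadherin, was at 28.7, 241 and 5.24 against 2.00, 0.64 and 0.38, and Stc1, Tspan9, Fam64a and the olfactory receptor Olfr524 were among the top 10. H19, Cdh1 and Akr1c13 were each lowest in vehicle 3.

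On the tumour side red cell genes took several of the top places. Beta-s, a beta globin, was listed at 0 in culture and reached 30587 FPKM in tumour 4. Aqp1, a water channel of red cells and endothelium, was at 0.38, 0.60 and 0 against 17.0, 617 and 865. Gimap3, a GTPase of lymphocyte survival, was instead highest in tumour 1, at 0, 0 and 0.19 against 145, 65.4 and 44.6. Both orders were common: of the 1126 genes higher in the tumours 352 increased and 370 decreased in scaled value over tumours 1, 2 and 4, along which the haemoglobin share increases. In deposited FPKM 370 increased and 357 decreased, so which order was more common depended on the scale.

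A similar contrast in the other libraries of the tables gave many of the same genes. It is split along the same 2 tables, so any difference made by the tables would recur in it. It also adds AMD3100 in the culture and the loss of Cxcr4 in the tumours. In AMD3100 culture against knockout tumours, which share no library with the samples above, 1418 genes (13.6%) were higher in culture and 1421 (13.6%) in the tumours, of 10433. Of the 1153 genes higher in vehicle culture 653 were called the same way (56.6% of these and 46.1% of the AMD3100 calls), and 1 was called the opposite way. Of the 1126 higher in wild-type tumours 879 were called the same way (78.1%, and 61.9% of the knockout tumour calls) and none the opposite way. The gene called the opposite way was Rpl12. Gpr83, an orphan receptor at 36.8, 40.4 and 23.4 FPKM in vehicle culture and at most 1.21 in wild-type tumours, had a difference of -0.03 in the other libraries. Notch1 and Il7r, not called above, had differences of 1.27 and -1.22 there, opposite in sign, and both were called. Cxcr4, also not called above, was called there with a difference of 2.09. Those tumours are Cxcr4 knockouts, so for this gene genotype and tumour coincide. For Rsad2, Samhd1, S1pr1 and Ccl5 the difference there was -7.28, -5.84, -4.30 and -10.15, and for Cyp51 it was 2.45.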

How the data were processed

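Polyadenylated RNA was sequenced as strand-specific single reads, per the labels' protocols. The authors deposited FPKM values in 2 tables of 23174 lines with the same symbols. CASAVA, TopHat and build mm9 are named in the submitters' processing notes. How FPKM was computed, with which annotation and whether by strand, is not given in the sources used here; nor are read totals. The steps between low values gave depths relative to vehicle 1 of 0.908 and 0.758 for vehicle 2 and 3 and 1.18 and 1.04 for tumours 2 and 4, and no clear step for tumour 1.

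Lines were joined by row. Of 10827 lines with a mean of at least 1 FPKM, 320 on the X, Y or mitochondrial genome, 44 unmatched and 17 ambiguous ones were left out. Values were quantile-scaled as log2(FPKM + 1) (Python 3.11.15, numpy 2.4.6, pandas 2.3.3), and calls needed no overlap and 2-fold; the calling step was tested on simulated data. Members, gene lists and rules were chosen with earlier results of these data known. Named genes came from a fixed set, the 10 largest called differences in each direction, the 3 largest called members of each list and the most abundant markers; further list members are named for their roles, after seeing their values. Alternatives changed the pseudocount, filter, scaling, calling rule, gene matching, marker genes and libraries. A few members are counted in their lists but not reported singly here.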

Additional observations from a re-analysis of the deposited data

Results flagged for a closer look

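The ribosomal protein gene Rpl12 had opposite directions in the pairs of groups. It was at 9.62, 4.95 and 3.39 FPKM in vehicle culture and 1.78, 0.81 and 0.31 in wild-type tumours, a scaled difference of 2.08. In AMD3100 culture minus knockout tumours the difference was -2.51. The groups did not overlap in either pair. The difference between the pairs was not tested, and ribosomal protein genes share reads with near-identical copies.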

How the results depend on the processing

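No paired analysis was possible because no test was run across the tables, and the shared numbers of vehicle and tumour libraries come from different experiments. Genes higher in culture (1153) numbered 1763 by within-library ranks, 710 when scaled to T cell genes, 215 at 4-fold and 2646 with no fold minimum. Genes higher in the tumours (1126) numbered 511 at 4-fold and 1852 with no fold minimum. Leaving out 1 library gave 1182 to 1538 and 1130 to 1400, the highest without tumour 1. The cause of these shifts beyond the changed rule was not tested. The median of all genes was 0.15, and 0.24 with no scaling, -0.016 with median-of-ratios scaling and 0.034 when scaled to T cell genes. At 4-fold 29.6% of calls were on the culture side.

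The cholesterol median (1.67) was 1.88 with a pseudocount of 0.1, 1.46 with no filter, 1.50 with median-of-ratios scaling, 1.52 scaled to T cell genes and 1.06 in AMD3100 culture against knockout tumours. In the latter pair the ATF4 median was 1.20, the ribosomal 0.59, the noncoding RNA 1.26, the D cyclin -0.045 and the p53 0.16. With no scaling the ER chaperone median was 0.55, the respiratory 0.97 and the ribosomal 1.08. Corrected for length these last were 0.36 and 0.40, and the noncoding RNA median was 0.52 (0.52 also with no filter). With median-of-ratios scaling the glycolysis median was 0.37 and the p53 median -0.47.

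Leaving out 1 library moved the medians of these lists: IL-7 from -0.69 to -0.022, immediate early from -1.58 to -0.74, glycolysis from 0.37 to 0.77, Myc targets from 0.61 to 1.15, D cyclins from -0.32 to 0.032, p53 from -0.50 to 0.0102, interferon from -2.29 to -1.84, NF-kB from -1.01 to -0.30, heat shock from 0.35 to 0.80, MHC class I from -1.01 to -0.45 and noncoding RNAs from 0.29 to 0.95. Over 19 settings that kept the calling rule, the interferon genes called in the tumours numbered 29 to 36. Of the named genes called in the compared groups, Rpl12 (-2.51) and Gpr83 (-0.031) had the opposite sign in AMD3100 culture against knockout tumours. Read totals are not given, so counting error at low FPKM is unknown.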
